A study of Mus musculus with 6 samples.

Results

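The SOCS family of cytokine signalling inhibitors was described across RNA-seq libraries of mouse peritoneal macrophages. The family has 8 genes, Socs1 to Socs7 and Cish, taken by gene name from a table of 54532 genes, and all 8 were found. Peritoneal macrophages of wild-type mice were left untreated (Control), given 500 ng/mL LPS for 5.5 h followed by 2 mM ATP for 0.5 h (Model), or given the same LPS and ATP with 50 μM muscone added 0.5 h before ATP (MUS). LPS is a bacterial cell wall component sensed by TLR4, ATP triggers the NLRP3 inflammasome in primed macrophages, and muscone is a macrocyclic ketone from musk. Each group had 2 libraries of poly-A RNA. Macrophages of this study came from male C57BL/6J mice 6 to 8 weeks of age, as cells drawn into the peritoneum by thioglycolate and cultured overnight, so they were elicited rather than resident cells. Neither the labels nor the methods say whether the libraries of a group came from separate mice or cultures, so the spread between them may be technical.

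SOCS proteins are feedback brakes on cytokine receptors that signal through Janus kinases (JAKs) and STAT transcription factors. STATs activated by a cytokine switch on SOCS genes, and the SOCS proteins bind the receptor or the kinase through an SH2 domain and recruit a ubiquitin ligase through the SOCS box. SOCS1 and SOCS3 can in addition block the kinase directly. In macrophages SOCS1 is known as a brake on interferon signalling and SOCS3 as a brake on the receptors of the IL-6 family. The protein of Cish (CIS) and SOCS2 are best known as brakes on STAT5 and on growth hormone signalling, whereas SOCS4 to SOCS7 are linked more to growth factor and insulin receptors.

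The sequence around the transcription start was available for Socs1, Socs3, Cish and Socs4, 4 of the 8 genes, in a promoter table from RefSeq on build GRCm38.p6. The windows of these 4 genes are shown. Socs1, Socs3 and Cish had the largest fold changes of the family, and Socs4 was the most abundant of the remaining members. Each window runs from 250 bases before the RefSeq start through the first 30 bases from it, 5′ to 3′ on the strand of the gene, and capitals mark matches to the letters searched. The letters were TTCNNNGAA, the site bound by STAT dimers, a pair of GAAA with 2 bases of any kind between them, the core of interferon response elements, and GGGA followed by any base and TTTCC, a site bound by NF-κB, each on both strands. The windows lie at chr16:10785507-10785786 on the minus strand (Socs1), chr11:117969337-117969616 on the minus strand (Socs3), chr9:107296409-107296688 on the plus strand (Cish) and chr14:47276670-47276949 on the plus strand (Socs4).
Socs1: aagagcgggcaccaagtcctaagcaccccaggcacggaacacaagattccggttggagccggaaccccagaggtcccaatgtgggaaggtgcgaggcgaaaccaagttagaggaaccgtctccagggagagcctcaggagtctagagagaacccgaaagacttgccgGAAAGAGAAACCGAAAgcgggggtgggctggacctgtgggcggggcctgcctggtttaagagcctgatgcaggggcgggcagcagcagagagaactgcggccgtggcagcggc
Socs3: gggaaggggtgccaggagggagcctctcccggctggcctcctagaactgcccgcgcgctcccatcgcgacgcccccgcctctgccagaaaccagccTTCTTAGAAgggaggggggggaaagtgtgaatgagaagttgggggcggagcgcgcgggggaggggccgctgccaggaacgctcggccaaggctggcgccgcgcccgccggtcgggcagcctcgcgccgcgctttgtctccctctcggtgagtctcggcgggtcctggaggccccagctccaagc
Cish: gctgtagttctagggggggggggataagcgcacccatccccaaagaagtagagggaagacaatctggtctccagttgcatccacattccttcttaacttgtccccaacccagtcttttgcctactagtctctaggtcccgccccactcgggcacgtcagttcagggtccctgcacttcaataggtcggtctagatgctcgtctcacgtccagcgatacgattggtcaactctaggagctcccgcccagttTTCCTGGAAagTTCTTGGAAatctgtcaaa
Socs4: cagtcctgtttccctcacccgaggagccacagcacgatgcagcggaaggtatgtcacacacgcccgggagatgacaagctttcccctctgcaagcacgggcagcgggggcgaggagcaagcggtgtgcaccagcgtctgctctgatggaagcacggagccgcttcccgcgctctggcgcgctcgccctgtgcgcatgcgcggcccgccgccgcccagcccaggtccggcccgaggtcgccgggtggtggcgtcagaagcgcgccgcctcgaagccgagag

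The Socs1 window held 2 overlapping matches to the interferon response letters, GAAAGAGAAA from position -83 to -74 and GAAACCGAAA from position -77 to -68, counted from the RefSeq start. The Socs3 window held 1 match to the STAT letters, TTCTTAGAA from -154 to -146. The Cish window held 2 matches to the STAT letters that lie side by side just after the start, TTCCTGGAA at bases 1 to 9 and TTCTTGGAA at bases 12 to 20. Other start sites are annotated for these genes, and the GENCODE coding transcript of Socs3 starts downstream of the RefSeq one. The Socs4 window held 0 matches to any of the 3 letter patterns. Over all 32851 promoter windows of this length, 7.83% held the STAT letters and 0.408% held them at least 2 times, 3.28% held the interferon response letters and 0.21% at least 2 times, and 0.39% held the NF-κB letters. Matches of the interferon response letters may overlap each other, as they do in Socs1. A match is a description of the letters and not a measurement of binding.

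The authors deposited the expression levels as FPKM, fragments scaled to gene length and library size. Levels are set side by side between genes on that scale, so the order of genes rests on the gene lengths used. The number of fragments behind each value could be recovered from FPKM and gene length. Between 15526321 and 17135442 fragments lay on genes in a library. The library scale behind the deposited FPKM was 1.45 and 1.34 times the fragment total in the Control libraries but 0.909 to 0.998 times in the Model and MUS libraries. This difference lowers Control FPKM against the other groups by the same factor for every gene of a library. All 10 macrophage markers checked had a mean FPKM of at least 1, with a sum of 9747 to 14496 FPKM per library, whereas 0 of 5 B cell, 0 of 7 T and innate lymphocyte, 0 of 5 mast cell and 0 of 5 dendritic cell markers did. Of 7 neutrophil markers only S100a8 did, S100a9, Ly6g and Elane were listed at 0 in every library, and the sum was 13.7 to 30.9 FPKM in Control, 57.7 to 112 in Model and 50.9 to 64.6 in MUS. Of 5 eosinophil markers only Siglecf did, and of 7 mesothelial and fibroblast markers 3 did (Col1a1, Col3a1 and Pdgfra), with sums of 1.42 to 4.17 and 8.85 to 18.6 FPKM. The part of these cells in the results was not tested. In bulk RNA, a change in the number of expressing cells and a change in RNA per cell cannot be told apart.

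Of the family, 4 genes were higher in Model and MUS than in Control without overlap of libraries (Socs3, Socs1, Cish and Socs2). On the deposited scale, the other 4 (Socs4 to Socs7) overlapped between Control and Model. Socs3 also had the highest mean of the family in Control. The family was taken by gene name but selected on earlier results of these data, its fold changes between Model and Control and between MUS and Model, so its levels and fold changes are given as a description and without p-values. Socs3 (ENSMUSG00000053113, chr11:117966079-117970047, minus strand, GRCm38) was the most abundant member after stimulation. It had 3.30 and 13.6 FPKM in the Control libraries, 380 and 374 FPKM in the Model libraries and 102 and 169 FPKM in the MUS libraries. The 3 groups did not overlap, with MUS between Control and Model. Control averaged 8.46 ± 7.30 FPKM, Model 377 ± 3.84 FPKM and MUS 136 ± 47.4 FPKM (SD, n = 2 each).

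Socs1 (ENSMUSG00000038037, chr16:10782240-10785536, minus strand), the brake on interferon receptors, had the same order of groups at a far lower level. It had 0.421 and 1.05 FPKM in Control, 11.99 and 9.90 FPKM in Model and 2.46 and 3.13 FPKM in MUS. Its groups did not overlap either, and the means were 0.737 ± 0.446, 10.9 ± 1.48 and 2.80 ± 0.478 FPKM (SD, n = 2 each). Behind these levels stood 28 and 70 fragments of Socs1 for Control, 492 and 446 for Model, and 108 and 148 for MUS.

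Cish (ENSMUSG00000032578, chr9:107296026-107302784, plus strand), the founding member of the family and a target of STAT5, was nearly silent in Control. It had 0.00681 and 0.204 FPKM in Control, which are 1 and 30 fragments, 5.09 and 6.97 FPKM in Model and 3.999 and 5.26 FPKM in MUS. Model and MUS overlapped, and both stood above Control. Cish overlaps a pseudogene, Gm17040, and an antisense gene, Gm17041, and the counting is not stated to use strand. Gm17041 was listed at 0 in every library, and Gm17040 at 0 in 5 of 6 libraries and at 0.345 FPKM in MUS replicate 1.

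Socs2 (ENSMUSG00000020027, chr10:95385362-95417180, minus strand), the brake on growth hormone signalling, was the lowest member after stimulation. It had 0.0872 and 0.179 FPKM in Control, 1.23 and 0.833 FPKM in Model and 1.08 and 0.853 FPKM in MUS. Like Cish, it was low in both Control libraries and overlapped between Model and MUS. Its mean over the 6 libraries was 0.711 FPKM, so it did not enter the test, which took genes with a mean of at least 1.

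The other 4 members showed no such pattern. Socs4 (ENSMUSG00000048379, chr14:47276931-47296102, plus strand), linked to the EGF receptor, had between 6.996 and 9.94 FPKM in the 6 libraries. Socs5 (ENSMUSG00000037104, chr17:87107679-87137583, plus strand), linked to the EGF and IL-4 receptors, had 2.58 and 3.79 FPKM in Control, 2.15 and 2.91 FPKM in Model and 1.94 and 2.20 FPKM in MUS, with MUS below Control. Socs6 (ENSMUSG00000056153, minus strand of chromosome 18) and Socs7 (ENSMUSG00000038485, chr11:97362551-97398542, plus strand), both linked to insulin signalling, had 2.83 to 6.66 FPKM and 2.58 to 4.48 FPKM. For Socs6 the lowest and the highest of these values were the 2 Control libraries, so the spread within that group covered all others. Summed over Socs4 to Socs7, the level lay between 16.5 and 20.1 FPKM in every library on the deposited scale. That scale lowers Control FPKM against the other groups, and the sum was not computed under the other scalings.

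**Figure D1:**
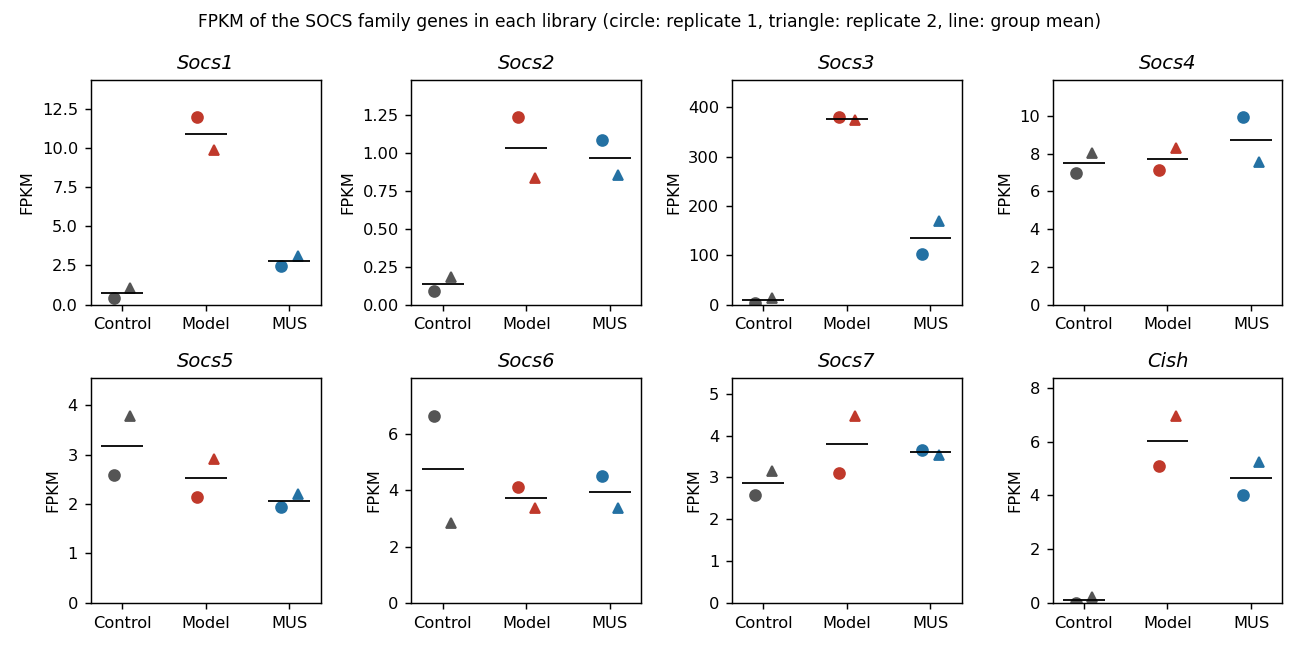
FPKM (linear axes starting at 0, one panel per gene) of the 8 SOCS family genes in Control, Model and MUS, with circles for replicate 1, triangles for replicate 2 and a line at the mean of each group. Socs3 and Socs1 stand highest in Model with MUS between Model and Control, Cish and Socs2 stand high in both Model and MUS, and Socs4 to Socs7 overlap between Control and Model.

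In order of level in Control, Socs3 (8.46 FPKM), Socs4 (7.51), Socs6 (4.74), Socs5 (3.19) and Socs7 (2.87) came before Socs1 (0.737), Socs2 (0.133) and Cish (0.106), all as means of 2 libraries. Neighbours whose libraries overlapped in this order were Socs3 and Socs4, Socs6 and Socs5, Socs5 and Socs7, and Socs2 and Cish. In Model the order was Socs3 (377 FPKM), Socs1 (10.9), Socs4 (7.74), Cish (6.03), Socs7 (3.79), Socs6 (3.74), Socs5 (2.53) and Socs2 (1.03). Socs3 stood far above the rest, and of the neighbours in this order Socs7 and Socs6 overlapped. In MUS it was Socs3 (136 FPKM), Socs4 (8.75), Cish (4.63), Socs6 (3.94), Socs7 (3.60), Socs1 (2.80), Socs5 (2.07) and Socs2 (0.968). Here Cish overlapped with Socs6 and Socs6 with Socs7. In FPKM, Socs1 thus stood above Socs4 and Cish in Model and below Socs4, Cish, Socs6 and Socs7 in MUS.

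The make-up of the family differed between the groups accordingly. Socs3 made up 14.6% and 41.4% of the summed FPKM of the 8 genes in the Control libraries, 91.6% and 91.1% in the Model libraries, and 78.8% and 86.7% in the MUS libraries. The sum itself was 22.6 and 32.9 FPKM in Control, 415 and 411 FPKM in Model and 130 and 195 FPKM in MUS. Socs3 was thus a minority of family transcripts in untreated cells and the great majority after LPS and ATP, with or without muscone.

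**Figure D2:**
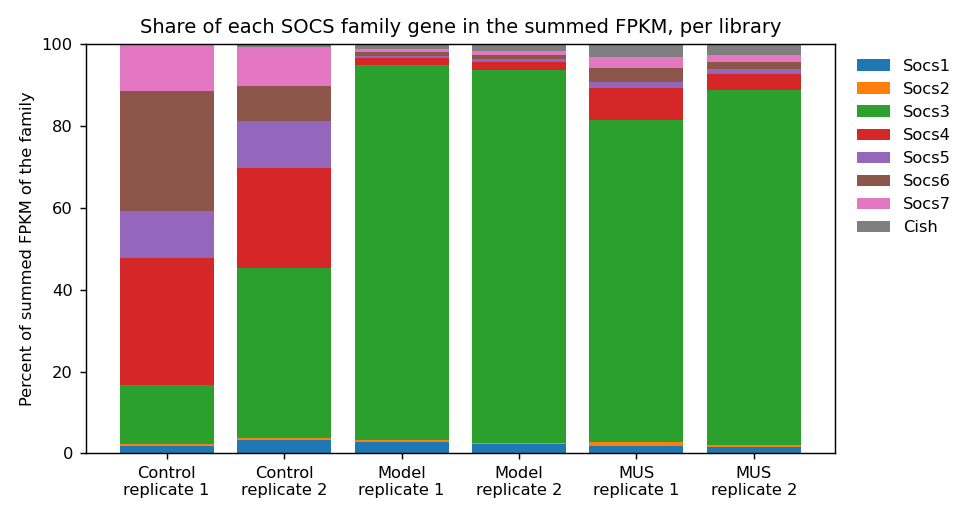
Percent of the summed FPKM of the SOCS family taken by each of its 8 genes, one stacked bar per library. Socs3 takes 14.6% and 41.4% in the Control libraries and between 78.8% and 91.6% in the Model and MUS libraries.

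Model vs. Control compares cells given LPS and ATP with untreated cells. The mean FPKM of Socs3 was 44.6 times higher in Model than in Control, that of Socs1 14.9 times, that of Cish 57.1 times and that of Socs2 7.77 times. The labels put replicate 1 of every group in batch 1 and replicate 2 in batch 2, and the ratio was smaller in batch 2 for all 4 genes. For Socs3 it was 115 in batch 1 and 27.5 in batch 2, for Socs1 28.5 and 9.41, and for Socs2 14.2 and 4.66. For Cish the ratio in batch 1 was 747, but with 1 fragment in Control its 95% counting interval ran from 133 to 29563, and in batch 2 it was 34.1 (23.7 to 50.9). These intervals cover counting error only. With libraries scaled by their fragment totals in place of the deposited scale, the ratio in batches 1 and 2 was 72.1 and 20.5 for Socs3, 17.8 and 7.03 for Socs1, 467 and 25.5 for Cish and 8.86 and 3.48 for Socs2.

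The size of these ratios depended on which Control library was used. In Control replicate 2, Cish was 29.98 times, Socs3 4.13 times, Socs1 2.50 times and Socs2 2.05 times as high as in Control replicate 1, while Socs6 was 0.425 times as high. Of the 9794 genes with a mean of at least 1 FPKM, 10.2% were at least 2-fold higher in Control replicate 2, and the median log2 difference was 0.04. Whether this difference between the untreated libraries is biological or technical was not tested.

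On log2(FPKM + 1), fitted with limma to all 6 libraries, the fitted difference between Model and Control (log2 fold change) was 5.58 (standard error 0.58) for Socs3, 2.80 (0.25) for Socs1 and 2.66 (0.24) for Cish. Adding 1 shrinks the fold change of low genes, and for Cish it was 5.07 with 0.1 added in place of 1 and 6.40 on the recovered fragments with voom. For Socs3 it was 4.69 without Control replicate 1 and 6.46 without Control replicate 2. A gene counted as a DEG when its p, adjusted by Benjamini-Hochberg, was no higher than 0.05 and its log2 fold change was beyond 1 in either direction. Of the 9794 genes tested, 15.1% were DEGs, 9.5% as higher and 5.56% as lower in Model. Higher genes were thus 63.1% of the DEGs, against 24.5% to 49.7% under the other scalings tried, under which the median log2 fold change of all genes was -0.51 to -0.06 in place of 0.04. Of the 7 members that passed the FPKM filter, 3 were DEGs (Socs3, Socs1 and Cish), all higher. The members were chosen with this contrast known, and Socs1 and Cish passed the filter only through their levels in Model and MUS, so nothing is read from this count. Socs2, fitted without the filter, had a log2 fold change of 0.84 (0.22) and was not a DEG. Of the 30192 genes fitted without the filter, 0.861% were DEGs, among them 3 members, Socs3, Socs1 and Cish.

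The fitted log2 fold changes of Socs4, Socs5, Socs6 and Socs7 were 0.04, -0.24, -0.20 and 0.30, none of them DEGs. For Socs4 and Socs7 the sign depended on how libraries were scaled to each other, with ranges of -0.52 to 0.04 and -0.18 to 0.37 over the scalings tried. For Socs5 and Socs6 it was negative under each of these scalings, although Socs6 was at 0.30 without Control replicate 1. Relative to the median of all genes under the same scaling, Socs4 lay between -0.06 and 0.02, Socs5 between -0.37 and -0.10, Socs6 between -0.27 and -0.14 and Socs7 between 0.26 and 0.44. On the deposited scale, the libraries of the groups overlapped for these 4 genes. They did not overlap for the 4 of 8 members that were higher in Model (Socs1, Socs2, Socs3 and Cish), a pattern that 32.6% of all genes tested had in that direction and 61.1% in either.

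MUS vs. Model compares cells given LPS and ATP with and without muscone added before ATP. Socs1 and Socs3 were lower in both MUS libraries than in both Model libraries. The mean of Socs1 in MUS was 25.5% of that in Model and that of Socs3 was 36.0%. The ratio of MUS to Model was 0.205 in batch 1 and 0.317 in batch 2 for Socs1, and 0.270 and 0.453 for Socs3. For both genes the ratio was below 1 in each batch and nearer to 1 in batch 2.

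The log2 fold change was -1.65 (standard error 0.25) for Socs1 and -1.51 (0.58) for Socs3. The standard error of Socs3 is the larger one, and its Control libraries, which share the estimate of spread, were 4.13-fold apart. The values without 1 library ranged from -1.78 to -1.53 for Socs1 and from -1.87 to -1.15 for Socs3. The direction was negative for both under each of the alternatives computed. None of the 9794 genes tested was a DEG in this comparison (0%), among them 0 of the 7 members tested, and with the replicate number as a block 4 genes were, 0 of them members. The study's own test, DESeq2 at the same thresholds, did report DEGs here, most of them lower with muscone. At an unadjusted p under 0.05 there were 825 genes (8.42%). The members were not DEGs under any alternative either, so the lower level of Socs1 and Socs3 in MUS did not pass the adjusted threshold in these 2 libraries a group. Groups without overlap, which 2 of the 8 members had here, were found for 42.1% of all genes, 21% lower and 21.2% higher in MUS.

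Cish and Socs2 stayed nearer to their Model level. The mean of Cish in MUS was 0.768 times that in Model, with 0.786 in batch 1 and 0.754 in batch 2, and a log2 fold change of -0.32 (standard error 0.24). The mean of Socs2 was 0.936 times that in Model. Both batches gave a ratio below 1 for Cish, but MUS replicate 2 (5.26 FPKM) lay above Model replicate 1 (5.09 FPKM). The log2 fold changes of Socs5, Socs4, Socs6 and Socs7 were -0.19, 0.15, 0.06 and -0.05, none of them larger than its standard error, and their libraries overlapped. The sign of Socs4, Socs6 and Socs7 turned when 1 library was left out.

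**Figure D3:**
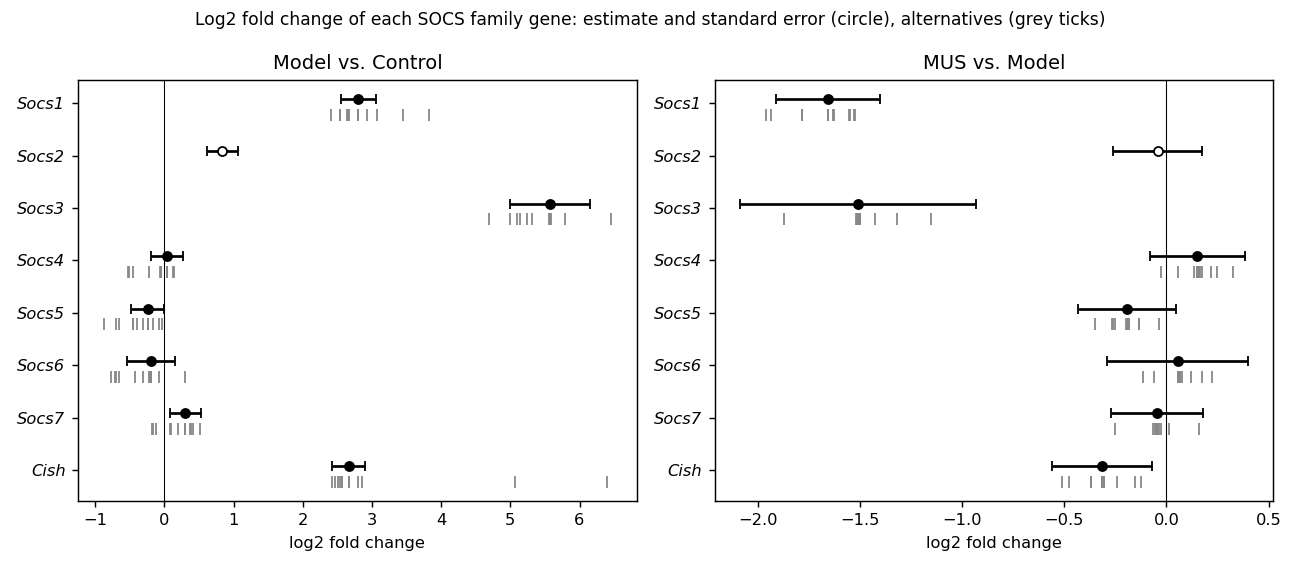
Fitted log2 fold change (limma, horizontal axis) of each SOCS family gene in Model vs. Control (left) and in MUS vs. Model (right), with the standard error as a bar, and grey ticks for the same value under alternative processing or without 1 library. Open circles mark Socs2, which was fitted without the FPKM filter, and the ticks of Socs4, Socs6 and Socs7 lie on both sides of 0 in both comparisons.

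Ratios between members within a library do not depend on the scaling of that library. The ratio of Socs3 to Socs1 in FPKM was 7.83 and 12.9 for the Control libraries, 31.7 and 37.8 for the Model libraries and 41.7 and 54.1 for the MUS libraries. The ratio of Socs3 to Cish was 74.6 and 53.7 in Model and 25.6 and 32.2 in MUS, and that of Socs1 to Cish was 2.36 and 1.42 in Model and 0.614 and 0.596 in MUS. In FPKM, Socs1 was thus above Cish in both Model libraries and below it in both MUS libraries. Before division by gene length (2908 bases for Socs1 and 6419 for Cish), Model held 492 and 446 fragments of Socs1 and 461 and 693 of Cish. The order in Model therefore rests on the lengths used. These are the same in every library, so they do not alter how the ratio differs between groups. In Control the ratios to Cish rest on 1 and 30 fragments of Cish and were 484 and 66.7 for Socs3 and 61.8 and 5.15 for Socs1.

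MUS cells were not at the Control level. The mean in MUS was 16.1 times that in Control for Socs3, 3.79 times for Socs1, 43.8 times for Cish and 7.28 times for Socs2. On the deposited scale, the libraries of MUS and Control did not overlap for 6 of the 8 genes, Socs1, Socs2, Socs3, Socs7 and Cish as higher and Socs5 as lower in MUS, against 39.6% of all genes tested as higher, 33.8% as lower and 73.3% in either direction. For Socs7 the log2 fold change between MUS and Control was 0.25, with a range of -0.22 to 0.36 over the alternatives. Its direction thus depended on the processing. This comparison shares its libraries with both others.

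The JAKs and STATs upstream of the family were taken from lists chosen with earlier results of these data known. The p-values of genes in these and the following lists are therefore not an independent test. Of 4 JAK genes tested, 1 rose in Model vs. Control and 0 fell, beside 9.5% and 5.56% of all genes tested. Jak2, the kinase of the growth hormone and GM-CSF receptors, had 9.77 and 38.3 FPKM in Control and 160 and 223 FPKM in Model (log2 fold change 3.21, limma adjusted p = 0.0142). Stat3, the factor activated by the IL-6 and IL-10 receptors, had 10.1 and 10.5 FPKM in Control and 54.5 and 56.5 FPKM in Model (2.32, limma adjusted p = 0.00296). Stat2 (3.12, limma adjusted p = 0.0129), which carries type I interferon signals, and Stat5a (2.15, adjusted p = 0.00915), the activator of Cish in many cells, rose as well. Stat6 (-0.76, adjusted p = 0.145) and Stat5b (0.54, adjusted p = 0.154) were not DEGs by limma. Jak2 and Stat2 were not DEGs without Model replicate 2, and Jak2 was not without Model replicate 1. In MUS vs. Model these 4 genes had log2 fold changes between -0.05 and 0.33, and none was a DEG.

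Of 17 receptor genes tested that signal through JAK and STAT, 4 rose and 2 fell in Model vs. Control, beside 9.5% and 5.56% of all genes tested. Il4ra, the shared chain of the IL-4 and IL-13 receptors, had 5.53 and 9.02 FPKM in Control and 26.4 and 32.7 FPKM in Model (1.91, limma adjusted p = 0.0106). Il13ra1 (2.10, adjusted p = 0.0125), Ifnar2 (1.43, adjusted p = 0.0163) and Il10ra (1.10, adjusted p = 0.0297) were the other receptors that rose. Il6ra, the receptor chain that binds IL-6, fell from 8.85 and 4.43 FPKM in Control to 1.21 and 2.10 FPKM in Model (-1.48, adjusted p = 0.029), and Ifngr1, the chain that binds interferon gamma, fell by 1.15 on the log2 scale (adjusted p = 0.0245). Il10ra and Ifngr1 were named after their values were seen, both lay close to the threshold of 1, and their calls under the alternatives are not given. Il13ra1 was not a DEG without either Model library. Il6ra was not when any 1 library other than Control replicate 2 was left out, and Ifnar2 was not without Control replicate 1, Model replicate 1 or either MUS library, nor under quantile normalization, rescaling without the highest genes or on recovered fragments, although it was higher in Model under each of these.

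Of the 14 genes tested for cytokines that signal through JAK and STAT, 12 rose in Model vs. Control and 0 fell, beside 9.5% and 5.56% of all genes tested. Another 6 of the list's 20 genes failed the FPKM filter, and 8 of the 14 averaged below 1 FPKM in Control (7 of them DEGs), so they passed the filter only through Model and MUS and nothing is read from this count. Ebi3 (0.23) and Ifnb1 (1.38) were not DEGs. Il6, the cytokine whose signal SOCS3 limits, had 0.0901 and 0.864 FPKM in Control, 917 and 454 FPKM in Model and 716 and 436 FPKM in MUS (Model vs. Control 8.82, limma adjusted p = 0.000504). Il27, whose product pairs with that of Ebi3, had 0.386 and 2.40 FPKM in Control, 227 and 123 FPKM in Model and 45.9 and 61.7 FPKM in MUS (6.28, adjusted p = 0.00118). Il12b (5.76, adjusted p = 0.00214) and Il12a (5.25, adjusted p = 0.00291), the subunits of IL-12, rose as well. The order of groups of Il27 was that of Socs3 and Socs1, with MUS between Control and Model, whereas Il6 overlapped between Model and MUS. In MUS vs. Model 0 of the 14 cytokines were DEGs, and 3 had an unadjusted p under 0.05, Il27 (-1.63), Ebi3 (-1.03) and Clcf1 (-0.90), all lower in MUS and chosen for naming after their values were seen.

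Of 13 brakes on JAK and STAT outside the SOCS family, 2 rose and 0 fell in Model vs. Control, beside 9.5% and 5.56% of all genes tested. Usp18, an interferon-induced brake on the type I interferon receptor, had 1.76 and 7.74 FPKM in Control, 351 and 241 FPKM in Model and 252 and 241 FPKM in MUS (Model vs. Control 5.89, limma adjusted p = 0.00181). Ptpn2, a phosphatase of JAKs and STATs, had a log2 fold change of 1.21 (adjusted p = 0.0212) and was not a DEG without Control replicate 1, Model replicate 1 or either MUS library, nor under 3 of the 4 other scalings of FPKM or with voom. Usp18 overlapped between Model and MUS, unlike Socs1 and Socs3.

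Of 12 genes of the ubiquitin ligase that binds the SOCS box (elongins, cullins and their partners), 0 were DEGs in Model vs. Control. For this list and the others of this paragraph, the share over all genes tested was 9.5% higher and 5.56% lower. Of the 12 genes, 2 had an unadjusted p under 0.05, as did 33.6% of all genes tested. The log2 fold change was above 0 for 11 of the 12, with a median of 0.59 against 0.04 for all genes. Among genes with a mean of at least 5 FPKM, a level that each of the 12 reached, the median was 0.25. Cul5, the cullin that SOCS proteins use, had between 4.08 and 5.61 FPKM in the 6 libraries. Of 13 other SOCS box genes 8 had an unadjusted p under 0.05, in both directions, and 1 was a DEG, Asb13 (1.18, limma adjusted p = 0.0118), which was not a DEG without Model replicate 1 or under 3 of the 4 other scalings of FPKM. Of 10 genes of TLR4 and insulin signalling whose proteins SOCS1 or SOCS3 bind, 1 fell, the insulin receptor Insr, from 2.79 and 2.16 FPKM in Control to 0.510 and 0.779 FPKM in Model (-1.08, adjusted p = 0.0239). It was not a DEG without Control replicate 1, Model replicate 1 or either MUS library.

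Over the 8 lists, 89 genes were tested. In Model vs. Control 24 rose and 3 fell, beside 9.5% and 5.56% of all genes tested. The 24 include the 12 cytokine DEGs, 7 of which averaged below 1 FPKM in Control and passed the filter only through Model and MUS. Nothing is read from this count. In MUS vs. Model 0 of 89 were DEGs, with 7 at an unadjusted p under 0.05, which is 7.87% of them against 8.42% of all genes tested. Besides the 3 cytokines these were Csf2ra (-1.08), Asb6 (-0.67) and Rela (-1.23), lower in MUS, and Irs2 (0.77), higher in MUS, named for that p alone. Without the FPKM filter, Jak2, Stat2, Stat5a, Il13ra1, Il4ra, Il6ra, Ifnar2, Ptpn2, Asb13 and Insr were not DEGs in Model vs. Control. With only these groups fitted, Il6ra, Ifnar2, Ptpn2 and Insr were not. For Il10ra and Ifngr1 these alternatives are not given.

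**Figure D4:**
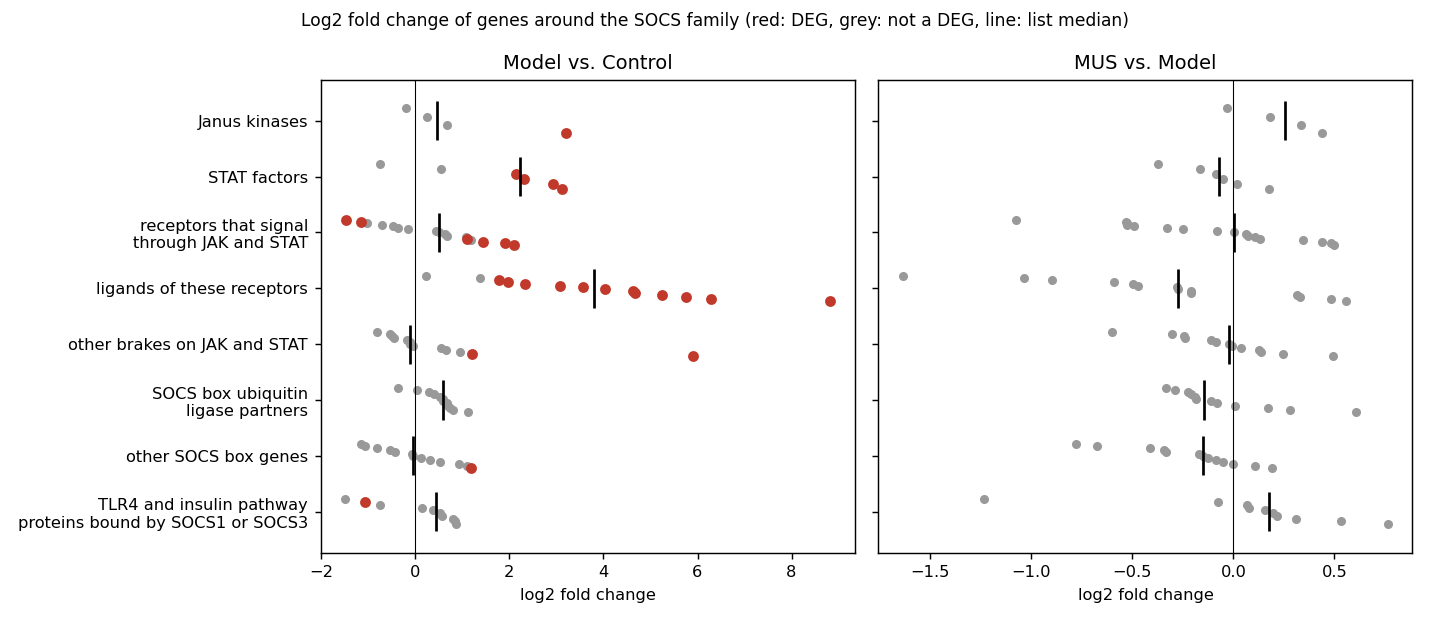
Fitted log2 fold change (limma, horizontal axis) of each gene tested in 8 lists around the SOCS family, with Model vs. Control on the left and MUS vs. Model on the right, DEGs in red, other genes in grey and a vertical mark at the median of each list. The 12 cytokine DEGs lie to the right of 0 in Model vs. Control, and 0 genes are DEGs in MUS vs. Model.

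The genes most like a member across the 6 libraries were ranked by Pearson's r of log2(FPKM + 1) over the 9793 other genes tested, as a description. For Socs1 they were Gm16378 (0.995), Dusp2 (0.993) and Tmed1 (0.990), for Socs3 Csf1 (0.999), Ly6e (0.996) and Fam53c (0.996), and for Cish Stk40, Usp42 and Kif3b (each 0.997). For Dusp2, Control held 6.05 and 6.39 FPKM, Model 41.9 and 34.1 FPKM and MUS 12.9 and 14.3 FPKM. For Csf1, Control held 2.61 and 4.83 FPKM, Model 19.3 and 19.3 FPKM and MUS 10.9 and 12.9 FPKM. Both had MUS between Control and Model, like Socs1 and Socs3. For Stk40, Control held 4.06 and 4.25 FPKM, Model 26.7 and 30.5 FPKM and MUS 21.7 and 27.2 FPKM, with MUS overlapping Model. The points of each r are the same 6 libraries in 3 groups, so a high value shows mainly a like order of groups.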

How the data were processed

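RNA was measured in 6 libraries of peritoneal macrophages, 2 each of Control, Model and MUS, grouped by the sample labels. The authors deposited one table of FPKM per gene and library. The submitters' processing notes name HISAT2, featureCounts 1.5.0-p3 and build GRCm39, whereas the methods of the study name RSEM. Positions of genes in it follow GRCm38, since 98.3% of 54409 gene identifiers had the same start and end in GENCODE M21. Multiplied by gene length, the FPKM of a library came in whole steps (tolerance 0.1 of a step), which gave the fragments on each gene. 0 columns had no sample.

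Values were analysed with limma 3.58.1 in R 4.3.3, and with Python 3.11.15, pandas 2.3.3, NumPy 2.4.6, SciPy 1.17.1 and Matplotlib 3.10.9. The fit used log2(FPKM + 1) and kept 9794 genes whose FPKM averaged 1 or more over the libraries. It had a mean-variance trend, 3 groups, 3 residual and 4.04 prior degrees of freedom and Benjamini-Hochberg adjustment over all genes tested. The tests were two-sided. DEGs used the study's thresholds, an adjusted p no higher than 0.05 and a log2 fold change beyond 1 in either direction. The study's own count test was not run, so the DEG counts given here are not those of the study's test. The main fit used FPKM, the deposited unit, and voom on the recovered fragments was an alternative. An exact permutation test of 2 libraries against 2 cannot go below p = 0.333. The script was tested on simulated data.

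The replicate number is the batch in the labels. Differences between replicates 1 and 2 correlated across genes with r = 0.12 between Control and Model, 0.14 between Model and MUS and -0.09 between Control and MUS, and the block was used as an alternative.

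The SOCS genes and the gene lists were chosen with earlier results of these data known. Pathway genes were named as the DEGs with the largest absolute log2 fold changes in each list whose libraries did not overlap, at most 4 per list, and others are said to be named after their values were seen. Of 122 genes in the lists, 2 older names were not matched. The 50-base stretches shared with transcripts of other genes made up 9.35% of those of Cish, 6.14% of Socs6, 4.58% of Socs2, 0.306% of Socs4 and 0% of the other members. How far shared stretches affect the FPKM of these genes was not tested. The result for one gene of the lists is not reported here.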

Additional observations from a re-analysis of the deposited data

How the results depend on the processing

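With 2 libraries a group, the test of a single gene leans on the spread of other genes. Of the 8 members, Socs3, Socs1 and Cish were DEGs in Model vs. Control under each alternative that tested them, and with a mean FPKM of at least 5 only Socs3 and Socs4 were tested, so the count was 1. Leaving out any 1 library gave 3 in each case, and 0 members were DEGs in MUS vs. Model under every alternative. The 1 and 30 fragments of Cish in Control limit the precision of its fold change.

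The log2 fold change of Socs1 in Model vs. Control was 3.83 with 0.1 added to FPKM, 2.41 after rescaling without mitochondrial genes and the 20 highest genes and 3.44 with voom, and 2.54 to 3.07 without 1 library. In MUS vs. Model it was -1.93 with 0.1 added and -1.96 with voom. For Socs3 the values without 1 library were 4.69 to 6.46 and -1.87 to -1.15.

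DEGs in Model vs. Control numbered 1475, and 260 without the FPKM filter, 2361 after the rescaling, 2791 with voom, 797 with only these groups fitted and 692 to 2077 without 1 library (763 without Control replicate 1, 692 without Model replicate 1, 800 and 797 without MUS replicate 1 and 2). With scaling by fragment totals, chosen after seeing the data, 646 were higher and 1554 lower. In MUS vs. Model 1 gene was a DEG with 0.1 added, 7 with only these groups fitted, and 0 to 31 without 1 library (31 without Model replicate 2, 5 without Control replicate 1 or 2). With the replicate block, DEGs numbered 1582 and 4. The block changed no call among the members and the pathway DEGs named by size of fold change, a set without Il10ra and Ifngr1. Pathway DEGs numbered 27, 12 without the filter and 16 to 34 without 1 library (16 without Model replicate 1). The causes of these changes were not tested.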
